A study of Mus musculus with 2 samples.

Results

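The Fc receptors of RAW264.7 cells and the adaptor chains that signal for them were examined as 7 genes, taken as a fixed list of activating and inhibitory receptors for immunoglobulin G, of adaptors with an immunoreceptor tyrosine-based activation motif (ITAM) and of the transport receptor *Fcgrt*. They are 7 of 18193 genes named by the annotation used here, and they were measured by 12 probe sets, each of which names only its own gene in the platform annotation. The genes were chosen by their known function, with the log2 ratios of these same 2 arrays already in view, so the values below describe them and test nothing. RAW264.7 is a mouse macrophage cell line that serves as an osteoclast precursor. Cells were given *Flcn* siRNA or scramble siRNA, the medium was replaced after 24 hours with MEM holding 10% FCS, and RNA was taken 48 hours later. The labels name no RANKL for either culture. *Flcn* encodes folliculin, a tumor suppressor, and each condition had 1 siRNA. RNA of each culture was hybridized to a single Affymetrix GeneChip. The differences below therefore lack any replicate error, and no p-value is given.

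Fc receptors bind the constant part of antibodies and let a macrophage take up what antibodies have coated. The activating receptors *Fcgr1*, *Fcgr3* and *Fcgr4* have no signalling motif of their own and depend on the common gamma chain, encoded by *Fcer1g*, whose ITAM is phosphorylated by Src family kinases and then recruits the kinase Syk. *Fcgr2b* carries an inhibitory motif in its own tail and recruits the lipid phosphatase SHIP1, encoded by *Inpp5d*. *Tyrobp* encodes DAP12, an ITAM adaptor that serves other myeloid receptors such as Trem2, and both adaptors are known as costimulatory chains of osteoclast formation in mice. *Fcgrt* encodes FcRn, which returns immunoglobulin G from endosomes to the cell surface and needs beta-2 microglobulin.

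The deposited value is a linear signal per probe set. Its median over all probe sets was 13.6 with *Flcn* siRNA and 12.8 with scramble siRNA, and a signal below the array's median was set to the median for the ratio. A gene passed the signal filter when the geometric mean of its 2 signals was at least 13.2, which 10285 genes did, and it was called higher or lower at 1.5-fold or more. Of these genes 5.52% were lower and 5.85% were higher. Under median scaling, in which the arrays are brought to a common median, 7.83% were lower and 4.06% were higher. The siRNA target *Flcn* gave 145.4 with *Flcn* siRNA and 208.6 with scramble siRNA at one probe set (log2 ratio -0.52) and 206.2 and 240.9 at another (log2 ratio -0.22), so it was lower at both but not by 1.5-fold. Its remaining probe set lay under the median on both arrays. Where a gene had several probe sets above the filter (5034 genes), the SD among their log2 ratios had a median of 0.19. This SD compares probe sets on the same 2 arrays, so it holds no variation between arrays or cultures and gives no noise level for a ratio. Macrophage markers were present on both arrays at 7 of 9 listed genes, with log2 ratios from -0.23 for *Itgam* to 0.10 for *Cd68*, while *Mertk* lay under the median on both and *Mrc1* had signals of 15.6 with *Flcn* siRNA and 10.0 with scramble siRNA. Of 8 osteoclast markers, 4 passed the filter, each with a log2 ratio above 0 (median 0.25), and the signal summed over the 8 was 277.0 with *Flcn* siRNA and 200.2 with scramble siRNA. The cathepsin gene *Ctsk* had 58.4 with *Flcn* siRNA and 17.2 with scramble siRNA (3.40-fold higher), while *Acp5*, *Dcstamp* and *Ocstamp* had log2 ratios of 0.35, 0.15 and 0.04, and *Calcr*, *Mmp9*, *Itgb3* and *Oscar* lay under the median on both arrays. Their part in the member values was not tested.

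*Fcgr1* was the only one of the 7 genes called lower on the *Flcn* siRNA array, and none was called higher. It encodes CD64, the high-affinity receptor for immunoglobulin G, and is known as an interferon-inducible gene of macrophages. At probe set 1417876_at its signal was 380.1 with *Flcn* siRNA and 1032.6 with scramble siRNA, and at 1436625_at it was 110.3 and 289.6. These are 36.8% and 38.1% of the scramble siRNA signal, with log2 ratios of -1.44 and -1.39, or 2.72-fold and 2.63-fold lower. Both probe sets gave nearly the same ratio, with a difference smaller than the median SD between probe sets of a gene. Ordered from the lowest log2 ratio upward, *Fcgr1* stood at place 22 of 10285 genes. Among the 2572 genes whose geometric mean signal reached 387.3, 3.97% were lower by 1.5-fold or more and 1.71% were higher. In a bulk culture, a loss of the mRNA from every cell and a loss from a fraction of the cells cannot be told apart.

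The other activating receptors differed little between the arrays. *Fcgr3*, which encodes the low-affinity receptor CD16, had a signal of 746.0 with *Flcn* siRNA and 819.8 with scramble siRNA (log2 ratio -0.14). *Fcgr4*, a mouse receptor for certain subclasses of immunoglobulin G, had 144.5 with *Flcn* siRNA and 131.6 with scramble siRNA (log2 ratio 0.13). Both ratios were smaller in size than the median SD between probe sets, which gives no noise level for them. Each gene rests on a single probe set. The log2 ratio of *Fcgr1* minus that of *Fcgr3* was -1.31, and minus that of *Fcgr4* it was -1.58, although the products of all 3 genes pair with the same adaptor chain.

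**Figure D1:**
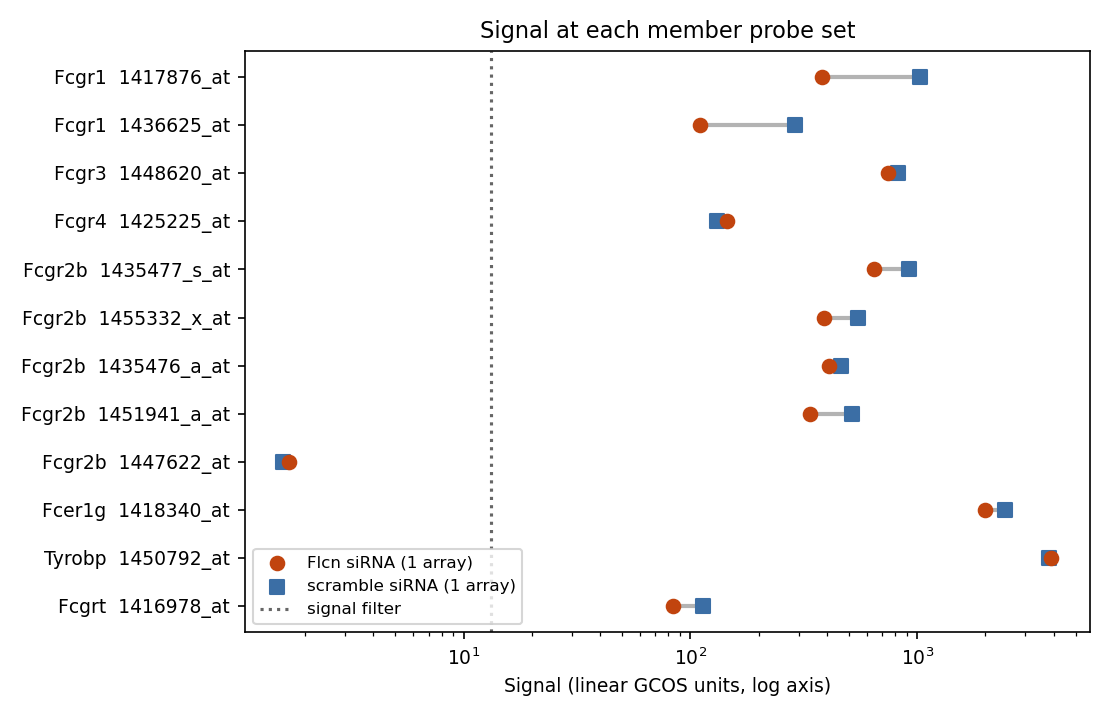
Signal at each of the 12 probe sets (linear units on a log axis), with circles for the *Flcn* siRNA array and squares for the scramble siRNA array, 1 array each, and the signal filter of 13.2 as a dotted line. The widest gaps are those of the *Fcgr1* probe sets, where the *Flcn* siRNA circle lies to the left, and the *Fcgr2b* probe set 1447622_at lies under the filter on both arrays.

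The promoters of the activating receptors are shown because these genes share a function and differ in their ratios. Sequences of 250 bases before and 50 bases after the annotated start were taken from RefSeq (GRCm38.p6), which matched 6 of the 7 genes, and *Tyrobp* was not matched. Both strands were searched for TTCNNNGAA, the GAS element of genes that respond to interferon gamma, for GAAA followed by any 2 bases and GAAA, the ISRE that binds interferon regulatory factors, for GAGGAA, the core site of the myeloid factor PU.1, and for CACGTG, the E-box bound by Tfe3 and its relatives. None of these motifs overlapped another in the sequences shown, in which capitals mark every match. The promoter of *Fcgr1* lies at chr3:96293920-96294219 on the minus strand, that of *Fcgr4* at chr1:171018676-171018975 on the plus strand and the first of the annotated promoters of *Fcgr3* at chr1:171059354-171059653 on the minus strand.
Fcgr1: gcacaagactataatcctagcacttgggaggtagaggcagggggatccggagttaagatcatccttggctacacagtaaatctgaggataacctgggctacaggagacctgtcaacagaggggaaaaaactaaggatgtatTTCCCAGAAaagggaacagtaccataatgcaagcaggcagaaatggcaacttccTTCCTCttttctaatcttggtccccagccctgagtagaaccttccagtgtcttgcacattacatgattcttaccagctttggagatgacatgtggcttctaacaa
Fcgr4: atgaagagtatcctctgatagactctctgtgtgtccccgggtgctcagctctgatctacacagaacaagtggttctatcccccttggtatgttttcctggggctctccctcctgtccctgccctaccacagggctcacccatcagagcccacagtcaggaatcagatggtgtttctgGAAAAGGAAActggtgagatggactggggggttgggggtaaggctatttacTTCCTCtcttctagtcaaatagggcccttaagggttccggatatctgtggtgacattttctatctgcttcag
Fcgr3: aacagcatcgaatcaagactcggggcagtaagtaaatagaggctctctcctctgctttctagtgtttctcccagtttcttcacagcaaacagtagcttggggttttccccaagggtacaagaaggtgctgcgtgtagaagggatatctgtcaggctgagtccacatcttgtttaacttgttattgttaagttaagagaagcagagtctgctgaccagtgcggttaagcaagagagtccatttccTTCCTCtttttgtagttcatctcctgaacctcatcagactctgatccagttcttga

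In the *Fcgr1* sequence the capitals mark TTCCCAGAA, a GAS match that begins 109 bases before the start, and TTCCTC, the reverse complement of the PU.1 core, at 55 bases before it. In *Fcgr4* they mark GAAAAGGAAA, an ISRE match 73 bases before the start, and a PU.1 core 22 bases before it. In *Fcgr3* they mark a PU.1 core 6 bases before the start. The windows of *Fcgr2b*, *Fcer1g* and *Fcgrt* held none of the 4 motifs, and CACGTG was in no window of the 6 genes. Of all 32851 promoter windows of the same length, 8.30% held the GAS letters, 3.44% the ISRE letters, 28.3% the PU.1 core and 7.15% CACGTG. Of the 6 genes with a window, *Fcgr1* was thus the only one whose window held the GAS letters, and *Tyrobp* was not searched. This describes the sequence and says nothing on whether a factor was bound.

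The inhibitory receptor *Fcgr2b*, which encodes CD32b, was lower at each of its 4 probe sets above the filter, by 1.13-fold to 1.53-fold. Its signal was 642.8 with *Flcn* siRNA and 916.9 with scramble siRNA at 1435477_s_at (log2 ratio -0.51), and 387.6 and 546.2 at 1455332_x_at (-0.50). At 1451941_a_at it was 337.1 with *Flcn* siRNA and 514.8 with scramble siRNA (log2 ratio -0.61), which passed 1.5-fold. At 1435476_a_at it was 409.7 with *Flcn* siRNA and 462.2 with scramble siRNA (-0.17). The SD over these 4 log2 ratios was 0.19, close to the median over all genes. All but 1451941_a_at are assigned to the same source sequence record in the platform annotation, so the 4 ratios cannot be taken as independent readings. By the probe set with the highest signal, which stands for the gene here, *Fcgr2b* was 1.43-fold lower and was not called. The remaining probe set, 1447622_at, had signals of 1.7 with *Flcn* siRNA and 1.6 with scramble siRNA and gives no ratio. The letters a, s and x in a probe set's name mark probes that can match more than 1 transcript, and all 4 informative probe sets carry them. The outer domains of *Fcgr2b* and *Fcgr3* are closely similar, so shared hybridization between these genes cannot be set aside from the values alone. The log2 ratio of *Fcgr2b* minus that of *Fcgr3* was -0.38, and that of *Fcgr1* minus that of *Fcgr2b* was -0.93.

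The adaptor chains had smaller ratios than *Fcgr1*. *Fcer1g* had a signal of 1996.7 with *Flcn* siRNA and 2439.1 with scramble siRNA, which is 81.9% of the scramble siRNA signal (log2 ratio -0.29). *Tyrobp* had 3905.2 with *Flcn* siRNA and 3811.9 with scramble siRNA, a log2 ratio of 0.03 that became -0.05 under median scaling. The log2 ratio of *Fcer1g* minus that of *Tyrobp* was -0.32, with 1 probe set each. The transport receptor *Fcgrt* had a signal of 83.6 with *Flcn* siRNA and 113.8 with scramble siRNA (log2 ratio -0.44), and its partner *B2m* had 4004.3 and 4244.6 (-0.08), with -0.10 at its other probe set. None of these genes reached 1.5-fold.

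**Figure D2:**
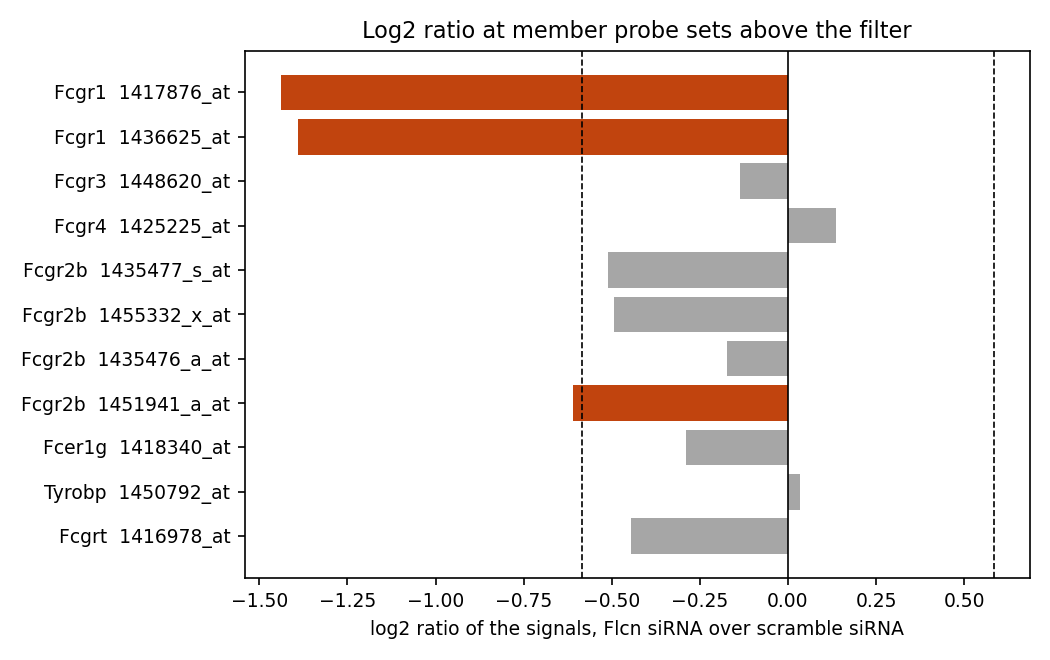
Log2 ratio (*Flcn* siRNA over scramble siRNA) at the 11 probe sets above the filter, with dashed lines at 1.5-fold and the probe sets past that line in red. Of the 11 bars 9 lie below 0, and those of *Fcgr1*, at -1.44 and -1.39, extend farthest.

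Over the 7 genes, 5 log2 ratios lay below 0 and 2 above, with a median of -0.29, while the median of all genes above the filter was 0.01 and 48.1% of them lay below 0. The 1 call among 7 members stands beside a background of 5.52% called lower. The middle 50% of all genes lay between -0.19 and 0.22, an interval that held *Fcgr3*, *Fcgr4* and *Tyrobp*. Of the remaining members, *Fcer1g*, *Fcgrt* and *Fcgr2b* lay below it, with 17.4%, 9.47% and 7.49% of genes having a lower log2 ratio, and *Fcgr1* with 0.204%.

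**Figure D3:**
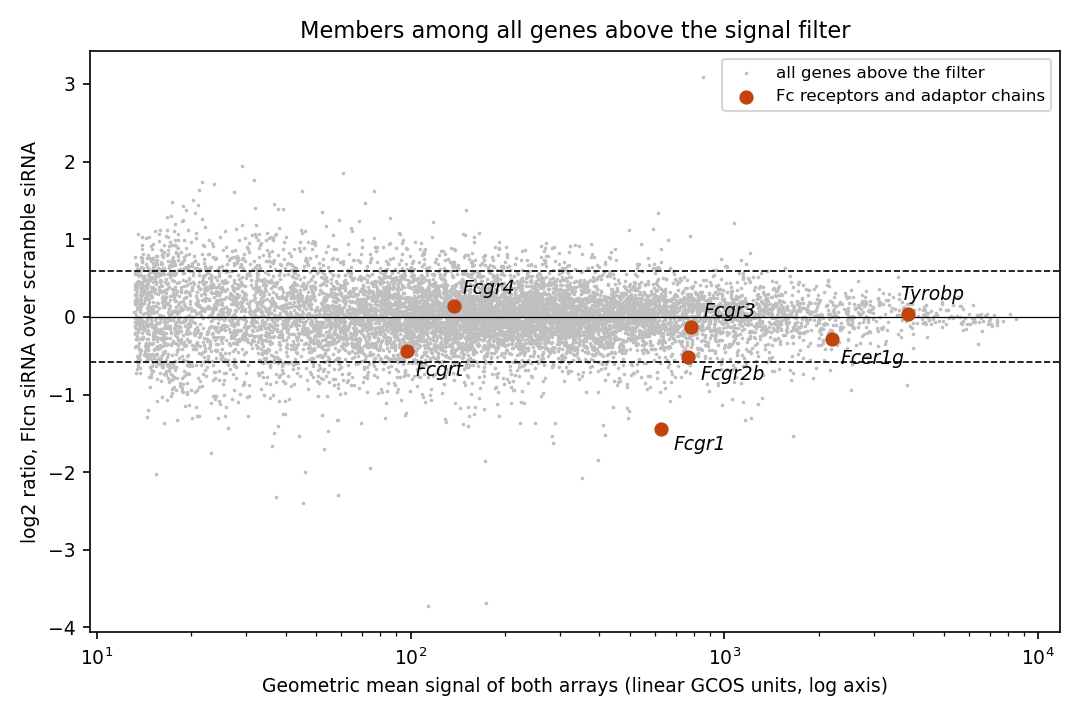
Log2 ratio, *Flcn* siRNA over scramble siRNA, against the geometric mean signal of both arrays (log axis) for 10285 genes in grey and the 7 members in red, with dashed lines at 1.5-fold. *Fcgr1*, at -1.44, lies far below the grey band at its signal, and the other members lie between the dashed lines.

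Most other receptors for immunoglobulins had signals below the filter. Of 13 such genes and partner chains analysed here, 4 passed it, and none of these was called. The chains *Fcer1a* and *Ms4a2* of the receptor for immunoglobulin E, with which *Fcer1g* pairs in mast cells, had signals of 1.4 and 4.4 with *Flcn* siRNA and 0.7 and 3.4 with scramble siRNA. None of the 7 listed mast cell and basophil markers passed the filter, and their highest signal on either array was 11.4. *Trim21*, a receptor for antibody in the cytosol, had 45.4 with *Flcn* siRNA and 66.3 with scramble siRNA (log2 ratio -0.55, and -0.13 at its other probe set). *Hcst*, which encodes the adaptor DAP10 and lies beside *Tyrobp* on chromosome 7, had 111.4 with *Flcn* siRNA and 139.6 with scramble siRNA (-0.33). *Fcrl1*, an Fc receptor-like gene, had 400.8 with *Flcn* siRNA and 294.3 with scramble siRNA at the probe set used (log2 ratio 0.45) and 59.6 and 90.3 at another (-0.60), so its direction is not settled.

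Of the receptors that signal through *Fcer1g* or *Tyrobp*, 10 of 17 analysed here passed the filter, 2 were called higher and 1 lower, with a median log2 ratio of 0.03. *Trem3*, a mouse receptor that pairs with DAP12, had a signal of 102.1 with *Flcn* siRNA and 228.7 with scramble siRNA, 2.24-fold lower at its only probe set. *Clec4n*, which encodes the fungal receptor Dectin-2, had 46.3 with *Flcn* siRNA and 28.6 with scramble siRNA (1.62-fold higher, log2 ratio 0.56 at its other probe set). *Sirpb1a* was at least 1.74-fold higher, with 22.3 on the *Flcn* siRNA array and a scramble siRNA signal of 11.7 that lay under the median. *Trem2*, a DAP12 partner known from osteoclasts and microglia, had 1455.0 with *Flcn* siRNA and 1511.5 with scramble siRNA (-0.06), and *Clec5a* had 840.3 and 871.1 (-0.05). The gamma chain partners *Clec4e* and *Clec4d*, which encode the receptors Mincle and MCL, had log2 ratios of 0.21 and 0.19. *Oscar*, the osteoclast receptor that pairs with the gamma chain, had signals of 7.5 with *Flcn* siRNA and 8.2 with scramble siRNA, under the median of both arrays.

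Downstream of the ITAM, 30 of 30 genes analysed here passed the filter, 2 were called higher and none lower, and the median log2 ratio was -0.02. These calls use 1 probe set per gene, and 5 of the 28 genes not called had another probe set past 1.5-fold, 3 of them lower and 2 higher. *Syk* itself had 115.7 with *Flcn* siRNA and 102.8 with scramble siRNA (log2 ratio 0.17, with 0.07 and 0.65 at its other probe sets above the filter). Its relative *Zap70*, known mainly from T cells, had 134.8 with *Flcn* siRNA and 43.7 with scramble siRNA, 3.08-fold higher. *Src* was at least 2.15-fold higher, with 27.5 against a scramble siRNA signal of 8.6 that lay under the median. Of the other Src family kinases analysed here, *Fgr* had a log2 ratio of 0.49, with 0.25 at its other probe set, and *Fyn* had -0.46 at the probe set used and -0.70 at its other. *Sos1*, a Ras exchange factor, had -0.49 at the probe set used and -0.50 at another, and it was at least 1.90-fold lower at its weakest, with 13.2 under the median of the *Flcn* siRNA array and 25.8 with scramble siRNA. The adaptor *Grb2* had 0.18 at the probe set used and 0.96 at its other, and the phosphatase *Ptprj* had -0.02 at the probe set used and was at least 1.56-fold lower at a weak one. *Lat*, an adaptor of T cells and mast cells, was at least 1.45-fold lower, with a signal of 11.7 under the median of the *Flcn* siRNA array and 19.7 with scramble siRNA. Without the floor these signals are 1.68-fold apart and the list has 1 gene called lower, so the count of none rests on the floor. The phospholipase *Plcg2* (-0.01), the kinase *Btk* (-0.02) and the adaptor *Lcp2* (0.06) had ratios close to 0.

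Of the genes that restrain ITAM signalling, 20 of 22 analysed here passed the filter, none was called higher and 2 were called lower. Over these 20 genes the median log2 ratio was 0.005, with 10 above 0 and 10 below. Of the partners of *Fcgr2b*, *Inpp5d* had a signal of 320.5 with *Flcn* siRNA and 301.5 with scramble siRNA (log2 ratio 0.09, with 0.35 at its other probe set), and *Ptpn6*, which encodes the phosphatase SHP-1, had 1660.2 and 1668.6 (-0.01). At the probe sets used, the phosphatases, Dok adaptors, ubiquitin ligases, *Csk* and *Pag1* lay between -0.39, for *Ptpn22*, and 0.27, for *Dok1*, with 0.16 for *Ptpn11*. Other probe sets gave 0.62 for the ubiquitin ligase *Cbl*, past 1.5-fold, against 0.14 at the one used, and 0.37 for *Pag1*, against -0.17. Both called genes are receptors with an inhibitory motif. *Pirb* had 141.1 with *Flcn* siRNA and 234.9 with scramble siRNA, 1.66-fold lower, and *Lair1*, a collagen receptor, was at least 1.95-fold lower, with a signal of 13.4 under the median of the *Flcn* siRNA array and 26.5 with scramble siRNA. Of the 8 receptors of this kind above the filter, 6 lay below 0, with a median log2 ratio of -0.35, beside 48.1% of all genes above the filter below 0. The 6 include *Lair1* and *Pilra*, whose signals were weak (20.5 with *Flcn* siRNA and 25.7 with scramble siRNA for *Pilra*). Among the 8, *Sirpa*, the receptor for CD47, had -0.37 at the probe set used, with -0.285 and -0.08 at its others above the filter. *Cd300a* had 0.12, with -0.33 at its other probe set. The C-type lectin *Clec4a2* had 0.26 at the probe set used and -0.60, past 1.5-fold, at its other.

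Of the genes of the phagocytic machinery, 21 passed the filter, 1 was called higher and 1 lower, and the median log2 ratio was 0.03. At the probe sets used, the 12 actin regulators lay between -0.47, for the Rac exchange factor *Dock2*, and 0.19, for the myosin *Myo1e*. *Dock2* was past 1.5-fold lower at both of its other probe sets, with log2 ratios of -0.81 and -0.78, and 2 genes of the list were called lower with probe sets without a, s or x. Its partner *Elmo1* had -0.13 at the probe set used and 0.03 at another and was at least 1.43-fold lower at a weak one, and the GTPase *Rac2* had 0.14 and 0.49. At the probe sets used, the 4 subunits of the NADPH oxidase between -0.24, for *Ncf4*, and 0.15, for *Cyba*. The complement receptor gene *Itgax* had 26.2 with *Flcn* siRNA and 14.2 with scramble siRNA (1.85-fold higher from a weak signal), and *Itgb2*, which encodes the shared integrin chain, had a log2 ratio of 0.20. *C3ar1*, the receptor for the anaphylatoxin C3a, was 1.52-fold lower, with 360.2 with *Flcn* siRNA and 548.3 with scramble siRNA and log2 ratios from -0.77 to -0.37 over its 3 probe sets. *C5ar1*, the receptor for C5a, had -0.34 at the probe set used and 0.11 at its other.

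**Figure D4:**
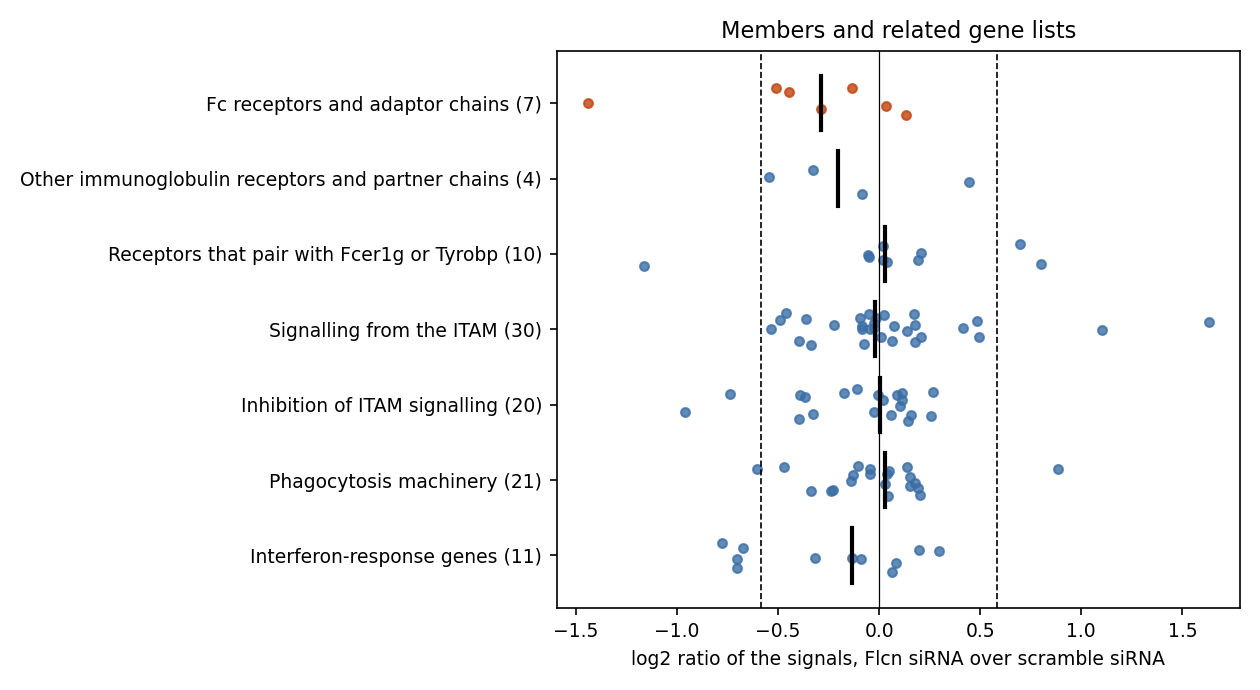
Log2 ratio, *Flcn* siRNA over scramble siRNA, of each gene above the filter in the Fc receptor list (red) and 6 related lists (blue), with the number of genes in parentheses, black bars at the medians and dashed lines at 1.5-fold. The medians of the related lists lie between -0.20 and 0.03, and *Fcgr1* is the leftmost point of all.

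Because *Fcgr1* is known to respond to interferon, genes of that response were set beside it. Of 11 above the filter, 4 were called lower and none higher, with a median log2 ratio of -0.13. These were *Stat2* and *Irf9*, which act in interferon signalling (each 1.63-fold lower), *Oas1a*, an antiviral synthetase (1.60-fold lower), and *Tap1*, a peptide transporter (1.71-fold lower). *Oas1a* had a signal of 772.5 with *Flcn* siRNA and 1232.7 with scramble siRNA. *Irf8*, a regulator of macrophage genes, had 344.9 with *Flcn* siRNA and 429.2 with scramble siRNA at the probe set used (log2 ratio -0.32). At its other probe set above the filter it had 236.0 and 251.6 (-0.09). *Irf1* had a log2 ratio of 0.06 and *Irf7* of 0.08. *Psmb8*, a subunit of the immunoproteasome, had 0.19 at the probe set used and -0.33 at its other, so its direction is not settled. The chemokine gene *Cxcl10* had the highest ratio of the list, 0.30, with signals of 31.1 with *Flcn* siRNA and 25.3 with scramble siRNA. *Fcgr1* had a lower log2 ratio than each of these 11 genes. The part of an interferon response in the *Fcgr1* value was not tested, and with 1 siRNA per condition the target and the siRNA sequence cannot be told apart.

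Genes next to the members in the RefSeq order were set beside them. Of 14 protein-coding genes above the filter among the 3 on either side of each member, none was called. *H2bc18* and *Txnip* on chromosome 3, near *Fcgr1*, had log2 ratios of 0.21 and 0.12, so neither was lower. On chromosome 1, *Cfap126*, directly beside *Fcgr3*, had weak signals of 14.6 with *Flcn* siRNA and 21.6 with scramble siRNA (log2 ratio -0.57), and *Sdhc*, the next gene, had 0.13. Within the adjoining cluster the log2 ratios of *Fcgr2b*, *Fcgr4* and *Fcgr3* were -0.51, 0.13 and -0.14.

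**Figure D5:**
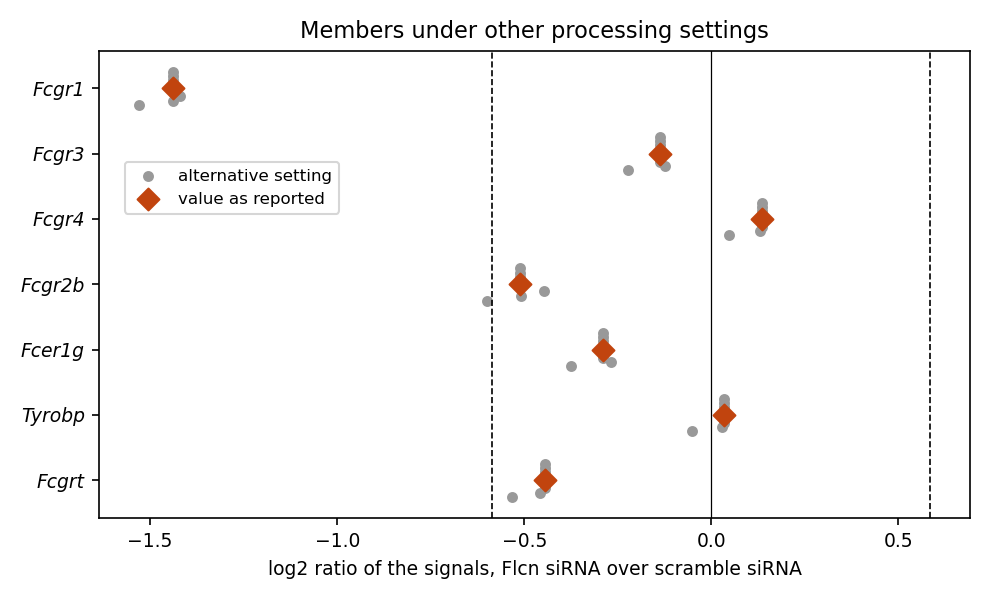
Log2 ratio, *Flcn* siRNA over scramble siRNA, of each member as reported (red diamonds) and under 8 or 9 other processing settings (grey circles), with dashed lines at 1.5-fold. *Fcgr1* stays between -1.53 and -1.42, *Fcgr2b* crosses the dashed line once, and *Tyrobp* lies on both sides of 0. The settings of floor and filter could not move the members, whose signals lie above them.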

How the data were processed

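RNA of RAW264.7 cells was measured on 2 Affymetrix Mouse Genome arrays, 1 per condition. The authors processed them with GCOS and deposited a linear signal intensity for every probe set, without detection calls. The 2% trimmed mean was 100 on either array, and the scaling target is not given in the sources used here. Of 45101 probe sets, 34958 name 1 gene in the platform annotation, 932 name several and 9211 are not listed. Control probe sets and those without a single gene were left out, and symbols were updated through Entrez IDs in RefSeq (34754 matched). The probe set with the largest geometric mean stood for a gene. Filter, floor and call are described with the results. No test was run, since precision is limited by the number of arrays. The members and the gene lists were chosen with earlier results of these data known. Named genes are the members, the siRNA target, genes called in a list, the 3 highest and 3 lowest of each list and some fixed partners; other examples were chosen after their values were seen. With 2 arrays, no likeness of pattern between genes was measured. Functions were tested on simulated data. Alternatives covered scaling, probe set choice, floor, filter and calling size. The work used Python 3.11.15 with matplotlib 3.10.9, scipy 1.17.1, pandas 2.3.3 and numpy 2.4.6.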

Additional observations from a re-analysis of the deposited data

How the results depend on the processing

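*Fcgr1* was lower by 1.5-fold or more under each of 9 alternatives of scaling, probe set, floor and filter, with log2 ratios from -1.53 to -1.42. Its strongest probe set carries no a, s or x and lies above every floor and filter used, so most of these settings could not move it. Those that could were median scaling (-1.53), quantile normalization, which gives both arrays the same distribution (-1.44), and the mean of all probe sets (-1.42). The log2 ratio of each member moved by less than 0.19, the median SD among probe sets of a gene, and for members with 1 probe set only the scaling could move it. The number of members called lower was 2 under median scaling, where *Fcgr2b* had -0.60, and 3 with a call at 1.3-fold, and it was 1 under the other alternatives, 2-fold included. No member was called higher under any alternative. *Tyrobp* had -0.05 with median scaling and lay above 0 otherwise, and that scaling moved the median of all genes to -0.07 and the share of higher genes among all calls to 34.2%, in place of 51.5%. *Fcgr2b* had no value from probe sets without a, s or x, since its only such probe set lies under the filter. Over the 6 related lists, 5 genes were called higher and 8 lower. Those called higher numbered 3 with probe sets without a, s or x, 0 with a filter at the 75th percentile, 9 at 1.3-fold and 2 at 2-fold, and those called lower 5, 16 and 1 with that filter, at 1.3-fold and at 2-fold. In these lists, 9 of the 83 genes not called had another probe set past 1.5-fold, 6 lower and 3 higher. For single lists, 106 of 132 such counts stayed within 1.5 times their value, where a count of 0 that stayed 0 was taken as unchanged. Several of these counts were 0 and none was above 4 as reported, so this share says little about how stable the calls are. No paired analysis was possible because each condition has 1 array. Signals near the array median, such as those of *Src*, *Sirpb1a*, *Lat*, *Lair1* and *Itgax*, limit what their ratios can show.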
